A study of Mus musculus with 2 samples.

Results

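The COUP-TF genes are 3 mouse genes, Nr2f1, Nr2f2 and Nr2f6, of the 21853 protein-coding genes on the nuclear chromosomes in GENCODE vM21 (mm10). They were chosen by their own promoter and distal peak counts in these libraries, so every count and rank of their peaks given here is a description and carries no test. A peak belonged to a gene's promoter when it touched the window reaching 500 bp from a protein-coding transcription start site in each direction, and it was distal when its centre lay over 1 kb from every coding start site and nearest to one of the gene's own. By this rule the 3 genes held 362 of the 199653 peaks of replicate 1 and 272 of the 154324 of replicate 2.

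The study measured DNase I hypersensitivity by sequencing (DNase-seq), in which the enzyme cuts where DNA is not covered by nucleosomes, in whole neural tube of mouse embryos at 11.5 days, from strain B6NCrl with male and female embryos pooled. There was 1 group and no treatment or genetic change, with 2 biological replicates that carry the same donor label, so the spread between them may be technical. Each library came with a list of 150-bp peaks and a list of wider hotspots, and read depth is unknown, since no file gives counts of reads. Replicate 1 had a median peak score of 45 and 162801 hotspots over 78.5 Mb, against a median score of 26 and 132619 hotspots over 50.9 Mb in replicate 2. Since the tissue was taken whole, an open site in few cells and a partly open site in many cannot be told apart. Promoter peaks lay at 8 of 8 neural progenitor and 6 of 6 neuronal marker genes in both libraries, and also at 8 of 8 mesenchymal, 4 of 4 lymphatic and 4 of 7 endothelial markers, while Cd68 was the one of 6 blood markers with a peak and the globin genes Hba-a1 and Hbb-bs had none. Of all coding genes, 66.5% had a promoter peak in both libraries, so these counts do not set one cell type apart from another. The part of other cell types in the values below was not tested.

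COUP-TFs are orphan nuclear receptors: they bind DNA through a zinc finger domain, mostly as dimers on repeats of the half-site AGGTCA, can pair with retinoid X receptors (RXRs), and often repress transcription by recruiting corepressors or by occupying sites that retinoic acid receptors would use. Nr2f1 (COUP-TFI) is known for patterning the neocortex and the eye and hindbrain, and Nr2f2 (COUP-TFII) for the ventral forebrain, for neuron migration and, outside the nervous system, for vein and lymphatic identity. Nr2f6 (EAR2) is the more distant relative, known for a role in the locus coeruleus and in lymphocytes.

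Nr2f1 (ENSMUSG00000069171) lies on the minus strand at chr13:78188973-78199757 with 5 coding start sites, Nr2f2 (ENSMUSG00000030551) on the minus strand at chr7:70351944-70366735 with 3, and Nr2f6 (ENSMUSG00000002393) on the minus strand at chr8:71374123-71381960 with 3. The sequences that follow were read from the mm10 reference on the gene's own strand at the replicate 1 peaks, and capitals mark a match, on either strand, to one of the 15 searched motifs described with the motif results. They are the distal peaks with the best mean score rank in both libraries that lay outside annotated untranslated regions, the highest-ranked peak beyond 200 kb of each large gene, and a promoter peak each of Nr2f2 and Nr2f6, which differ widely in base composition.
Nr2f1 peak 2.0 kb upstream, chr13:78201676-78201825: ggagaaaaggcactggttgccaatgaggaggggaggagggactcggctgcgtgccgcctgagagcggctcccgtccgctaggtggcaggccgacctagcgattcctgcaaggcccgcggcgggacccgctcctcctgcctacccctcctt
Nr2f1 peak 33.2 kb downstream, chr13:78163136-78163285: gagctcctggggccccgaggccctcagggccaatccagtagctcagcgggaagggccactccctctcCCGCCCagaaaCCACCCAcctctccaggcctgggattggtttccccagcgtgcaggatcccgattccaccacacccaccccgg
Nr2f1 peak 228.2 kb upstream, chr13:78427836-78427985: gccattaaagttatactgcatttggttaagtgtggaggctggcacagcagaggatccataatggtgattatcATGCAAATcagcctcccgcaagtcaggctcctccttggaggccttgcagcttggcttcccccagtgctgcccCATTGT
Nr2f2 peak 1.3 kb upstream, chr7:70361856-70362005: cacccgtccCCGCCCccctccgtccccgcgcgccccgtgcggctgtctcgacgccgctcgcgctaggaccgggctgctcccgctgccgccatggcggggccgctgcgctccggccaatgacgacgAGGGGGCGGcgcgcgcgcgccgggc
Nr2f2 peak 13.5 kb downstream, chr7:70346316-70346465: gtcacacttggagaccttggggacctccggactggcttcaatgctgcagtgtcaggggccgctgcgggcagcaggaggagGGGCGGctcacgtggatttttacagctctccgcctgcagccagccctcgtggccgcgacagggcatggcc
Nr2f2 peak 28.0 kb downstream, chr7:70331816-70331965: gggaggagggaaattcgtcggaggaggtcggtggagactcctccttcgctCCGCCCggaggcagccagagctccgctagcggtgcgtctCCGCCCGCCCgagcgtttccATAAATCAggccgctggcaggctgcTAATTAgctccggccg
Nr2f2 peak 481.6 kb upstream, chr7:70848236-70848385: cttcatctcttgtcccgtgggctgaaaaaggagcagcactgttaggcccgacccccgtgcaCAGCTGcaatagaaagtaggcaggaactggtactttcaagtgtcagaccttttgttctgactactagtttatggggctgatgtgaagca
Nr2f2 promoter peak, chr7:70366836-70366985: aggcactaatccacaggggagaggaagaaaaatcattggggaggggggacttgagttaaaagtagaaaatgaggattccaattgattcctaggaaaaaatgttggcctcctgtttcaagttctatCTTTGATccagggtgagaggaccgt
Nr2f6 promoter peak, chr8:71382036-71382185: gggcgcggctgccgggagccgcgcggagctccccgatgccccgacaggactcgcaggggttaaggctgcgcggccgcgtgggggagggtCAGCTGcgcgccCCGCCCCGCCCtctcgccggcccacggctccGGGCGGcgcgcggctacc
Guanine and cytosine made up 68.7% and 68% of the Nr2f1 peaks at 2.0 and 33.2 kb and 82.7%, 66.7% and 66.7% of the Nr2f2 peaks at 1.3, 13.5 and 28.0 kb. The far peaks were closer to the mean of all distal peaks of replicate 1, 50.2%, with 52% for Nr2f1 and 50% for Nr2f2. The Nr2f6 promoter peak shown had 82%, above the 63.4% mean of all promoter peaks, and the Nr2f2 promoter peak shown had 44%, below it. The Nr2f6 one is the highest in score of that gene's promoter peaks in replicate 1, and the Nr2f2 one the lowest. The other promoter peaks of replicate 1 had 66% and 79.3% at Nr2f6 and 61.3%, 66% and 50.7% at Nr2f2.

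All 3 genes had promoter peaks in both libraries, as did 66.5% of all coding genes (with a peak in 68.5% in replicate 1 and 67.7% in replicate 2). Nr2f1 had 5 promoter peaks in each library, Nr2f2 had 4 in each and Nr2f6 had 3 in each. Peaks of the same library can overlap each other and are then counted separately, here and among the distal peaks. The Nr2f6 promoter peaks chr8:71380596-71380745 and chr8:71380636-71380785 of replicate 2 do so. The counts depend on the window: as means over the libraries, a window of 1000 bp gave 9.5 for Nr2f1, a window of 200 bp gave 2 for Nr2f2 and 1.5 for Nr2f6, and start sites of every transcript, not only coding ones, gave 9 for Nr2f2. Of all coding genes, 14.9% in replicate 1 and 14.0% in replicate 2 had 3 or more, and 5.87% and 5.14% had 4 or more. Genes with many start sites have more window to hold a peak, and the 3 genes have 3 to 5 each. The counts were equal between libraries, but not the positions: 3 of the 5 Nr2f1 peaks, 3 of the 4 Nr2f2 peaks and 2 of the 3 Nr2f6 peaks of replicate 1 overlapped a peak of replicate 2. The share over all promoter peaks is not given here, so this is not shown to be particular to the 3 genes.

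The promoter peaks of Nr2f1 had scores of 78, 114, 105, 97 and 100 in replicate 1 and 24, 72, 59, 60 and 30 in replicate 2. The score is the authors' deposited whole number per peak, of unstated meaning and up to 150, and its percentile within its own list is used here for rank alone. The highest of the 5 in each library, at percentiles 92.5 and 86.9, covered the same start site, the third from the 5′ end at position 78197544, with centres 34 and 74 bp inside the gene. The most 5′ start site, at 78199757, lay in no peak: its nearest ones were centred 267 and 227 bp inside the gene, with scores of 100 and 60, and replicate 2 had a further peak at −533 bp with a score of 30, where a minus sign means upstream here and below. This start site lay in a hotspot in both libraries.

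At Nr2f2 the promoter peaks of higher rank lay inside the gene, not at its 5′ end. The start site at 70359921, the third from the 5′ end, was covered by peaks with scores of 98 in replicate 1 and 59 in replicate 2 (percentiles 87.2 and 81.5), and the start site at 70360593 had peaks 357 and 477 bp upstream with scores of 83 and 60. Around the most 5′ start site, at 70366735, the best peaks lay 345 and 365 bp inside the gene with scores of 81 and 31. Closer to that site each library had 1 weak peak, 175 bp upstream with a score of 33 in replicate 1 (percentile 28.8, the Nr2f2 promoter sequence shown above) and 65 bp inside the gene with a score of 17 in replicate 2 (percentile 28). These last peaks did not overlap a peak of the other library. They lie in an exon of B130024G19Rik, an annotated noncoding transcript that overlaps the 5′ end of Nr2f2.

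Nr2f6 differed in that its best promoter peak was the same 150 bp in both libraries, centred 150 bp upstream of the most 5′ start site, with scores of 133 and 118 (percentiles 97 and 96.8). In rank this was above every promoter peak of Nr2f1 and Nr2f2 in its library. Replicate 1 had another peak 110 bp inside the gene with a score of 128, which replicate 2 lacked as a peak although the position lay in one of its hotspots. The remaining Nr2f6 promoter peaks had scores of 64 in replicate 1 and 36 and 38 in replicate 2, and all 3 lay in an intron.

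**Figure D1:**
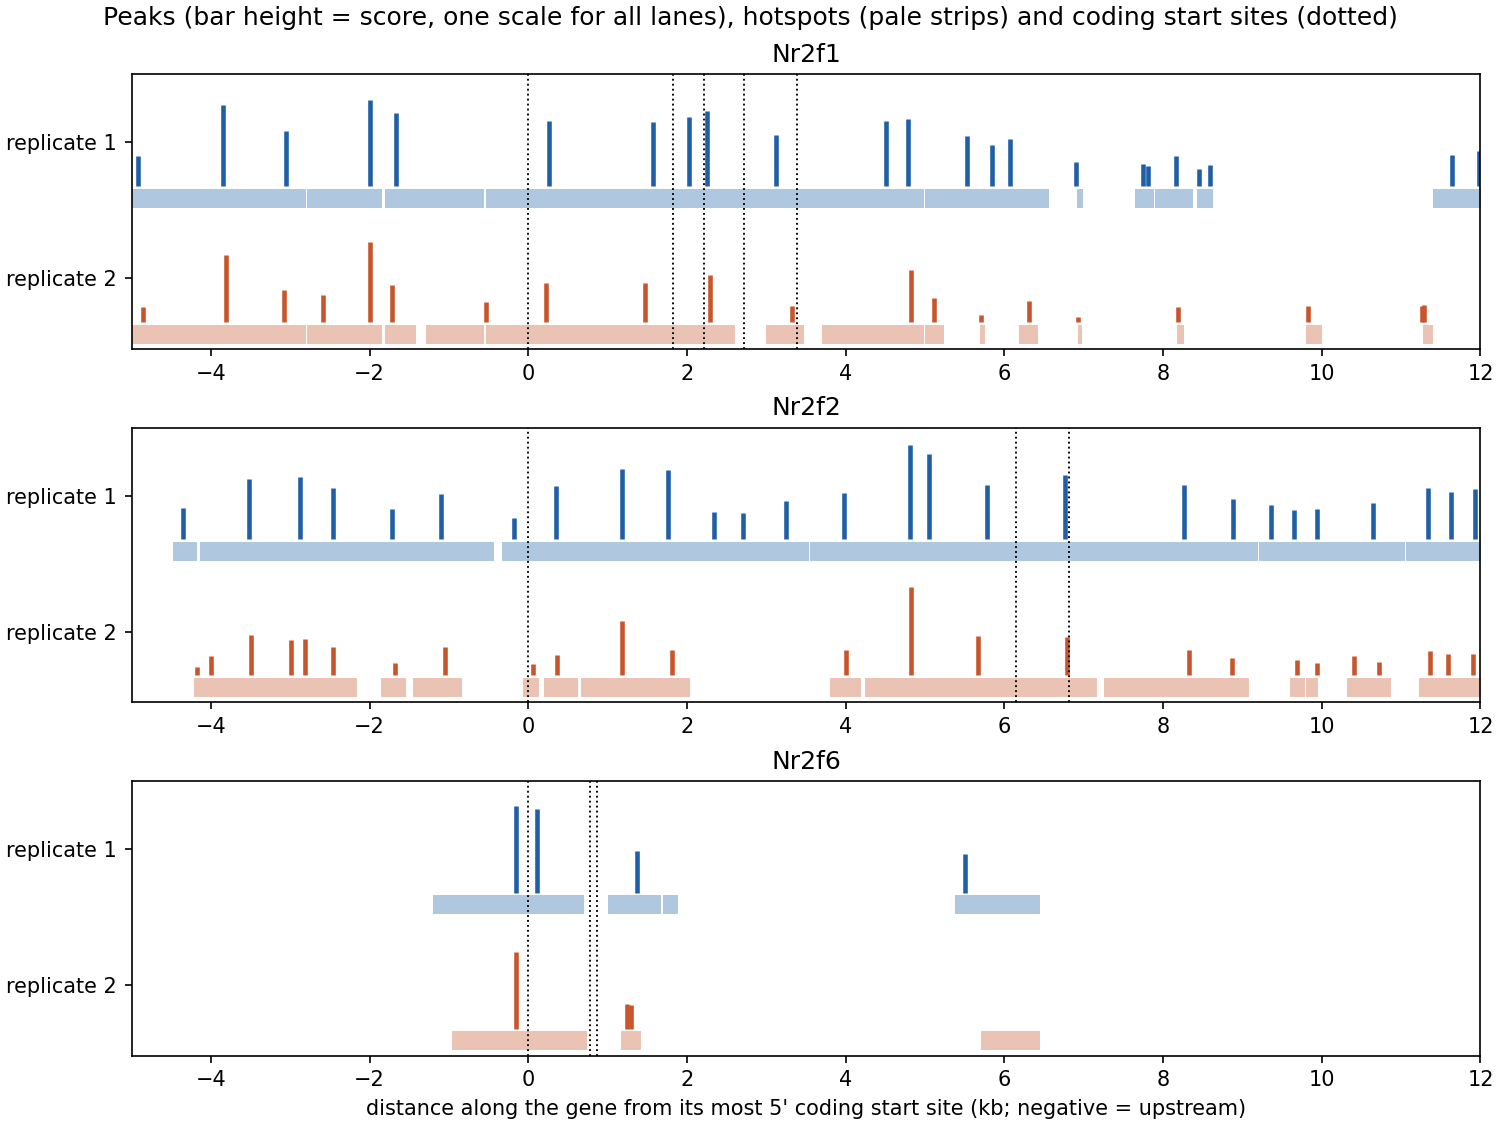
Peaks (vertical bars, height proportional to score on one scale), hotspots (pale strips, those in the gene's territory) and coding start sites (dotted lines) from 5 kb upstream to 12 kb inside or beyond each gene, by distance from the most 5′ coding start site, for both libraries. Only promoter and distal peaks are drawn, so peaks between the 500 bp window and the 1 kb line are missing. The drawn peaks stood along much of Nr2f1 and Nr2f2. The peaks assigned to Nr2f6 lay near its 5′ end, besides 1 distal peak in replicate 1 with a score of 59, and a hotspot also crossed the downstream edge of its territory in both libraries.

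Peaks that fell between the promoter window and the 1 kb line were in neither class: 4 and 5 for Nr2f1, 1 and 1 for Nr2f2 and 3 and 0 for Nr2f6 in replicates 1 and 2. The peaks just inside 1 kb stood 913 bp from an Nr2f1 start site with scores of 132 and 97, and 911 and 851 bp from an Nr2f2 start site with scores of 108 and 79. The closest distal peaks stood 1123 and 1443 bp from Nr2f1 start sites with scores of 100 and 80, and 1095 and 1055 bp from Nr2f2 start sites with scores of 69 and 43. The peak at 913 bp was thus left out by the line although its score was higher than that of any promoter or distal peak of Nr2f1 in replicate 1.

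Nr2f1 and Nr2f2 each had over 100 distal peaks and Nr2f6 had almost none. Nr2f2 had 206 distal peaks in replicate 1 and 159 in replicate 2, Nr2f1 had 143 and 101, and Nr2f6 had 1 and 0. Among all coding genes these were ranks 3 and 5 for Nr2f2 and 11 and 21 for Nr2f1, where the median gene had 3 and 2. The territory, the stretch of genome nearer to a gene's coding start sites than to those of any other gene, was 1304.5 kb for Nr2f2 (chr7:69554582-70859110), 1430.9 kb for Nr2f1 (chr13:78110638-79541583) and 12.7 kb for Nr2f6 (chr8:71376219-71388872). Both large genes sit in gene-poor stretches, and a larger territory can collect more peaks. The counts also rest on coding genes alone claiming peaks: with the start sites of noncoding genes included, the mean over the libraries was 10.5 for Nr2f1, 17.5 for Nr2f2 and 0 for Nr2f6. With the higher-scoring 50% of each list it was 62.5 for Nr2f1 and 88.5 for Nr2f2.

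Set against territory, Nr2f2 stood higher than Nr2f1, an order that turned when noncoding genes could also claim peaks (means of 79.7 per 100 kb for Nr2f2 and 93.9 for Nr2f1, over territories of 22.0 and 11.2 kb). Nr2f2 had 15.8 and 12.2 distal peaks per 100 kb of territory (0.158 and 0.122 per kb), and Nr2f1 had 9.99 and 7.06 (0.0999 and 0.0706 per kb). The genome as a whole had 5.99 and 4.43 per 100 kb. Among the 1100 genes with a territory of 500 kb or more, the median was 3.26 and 1.74 and the 95th percentile 11.4 and 8.52, so that Nr2f2 lay above the 95th percentile in both libraries, at ranks 14 and 22, and Nr2f1 below it, at ranks 93 and 88. Nr2f6 had 7.9 and 0 per 100 kb, a value that rests on 1 peak. Of the 3620 genes with territories of 8 to 20 kb, 50.7% and 55.9% likewise had no distal peak.

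**Figure D2:**
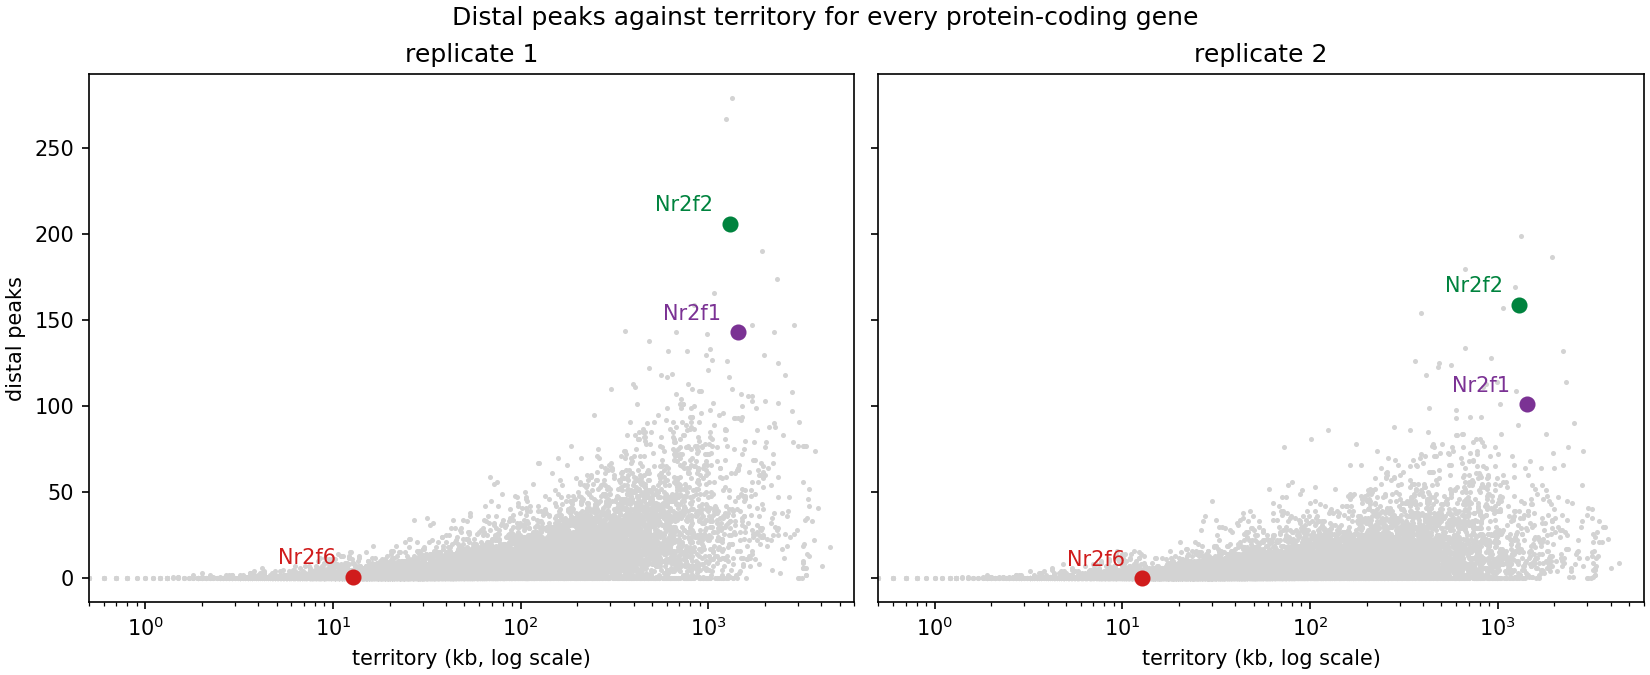
Distal peaks of every protein-coding gene (grey points) against its territory in kb on a log axis, one panel per library, with the COUP-TF genes in colour. Nr2f2, at 206 and 159 peaks, and Nr2f1, at 143 and 101, stand near the top of genes of like territory, and Nr2f6 lies at the bottom left with 1 and 0.

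The distal peaks of both large genes were packed around the gene and then spread thinly far beyond it. The densest 50 kb held 62 and 43 of the distal peaks of Nr2f1, between −12.3 and 34 kb of the nearest start site in both libraries. The densest 50 kb of Nr2f2 held 79 in replicate 1, the most of any coding gene, and 51 in replicate 2, where 11 genes had more. Within 50 kb of a start site lay 44.1% and 42.6% of the Nr2f1 peaks and 39.8% and 34.0% of the Nr2f2 peaks. Within 100 kb lay 45.5% and 42.6% for Nr2f1 and 47.1% and 40.3% for Nr2f2, against 37.7% and 40.6% of the distal peaks of all genes with territories of 500 kb or more.

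Upstream of Nr2f1 the layout had a long stretch with few peaks. There were 5 and 6 peaks at 1 to 5 kb upstream, 6 and 2 at 5 to 10 kb and 6 and 5 at 10 to 25 kb. From 25 to 200 kb upstream there were only 3 peaks in replicate 1 and 0 in replicate 2, none of which replicate 2 shared, and the widest gap of replicate 2 was 214 kb, from −12.3 to −227 kb. In replicate 1 the 3 peaks divide this stretch, and its widest gap lay elsewhere, 104 kb from −830 to −934 kb. Beyond 200 kb the peaks returned, 76 in replicate 1 and 58 in replicate 2, with 8 and 5 per 100 kb at 200 to 400 kb, 7.5 and 6 at 400 to 800 kb and 5.54 and 4.43 past 800 kb. All peaks of Nr2f1 past 200 kb were upstream, since its downstream territory is only 85.7 kb long.

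Nr2f2 had far peaks on both sides. Upstream of the nearest start site it had 10 and 10 peaks at 1 to 5 kb, some of which lay between start sites inside the gene. It had 0 and 0 at 5 to 10 kb and 3 and 3 from 10 to 50 kb upstream. The density was then higher farther out: 10 and 7 per 100 kb at 100 to 200 kb, 13 and 11.5 at 200 to 400 kb and 22.7 and 15.2 from 400 kb to the edge of the territory. Downstream of the nearest start site it had 12 and 10 peaks at 1 to 5 kb, some of them also between start sites. No density is given here for that bin, since its length leaves out the stretch between start sites. Farther downstream the density went from 220 and 160 per 100 kb at 5 to 10 kb to 84 and 40 at 25 to 50 kb. It was 4 and 2 at 100 to 200 kb and then stood at 9 and 10 at 200 to 400 kb. The widest gaps were 84.6 kb in replicate 1 and 74.5 kb in replicate 2, at 620 to 704 kb and 613 to 688 kb downstream. Over the territory as a whole the 2 sides had close densities at Nr2f2, 14.6 and 12 upstream against 16.6 and 12.4 downstream, and unlike ones at Nr2f1, 7.15 and 5.29 upstream against 54.8 and 35.0 downstream. The Nr2f2 values count the peaks between its start sites but not the length of that stretch, so they are somewhat too high.

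**Figure D3:**
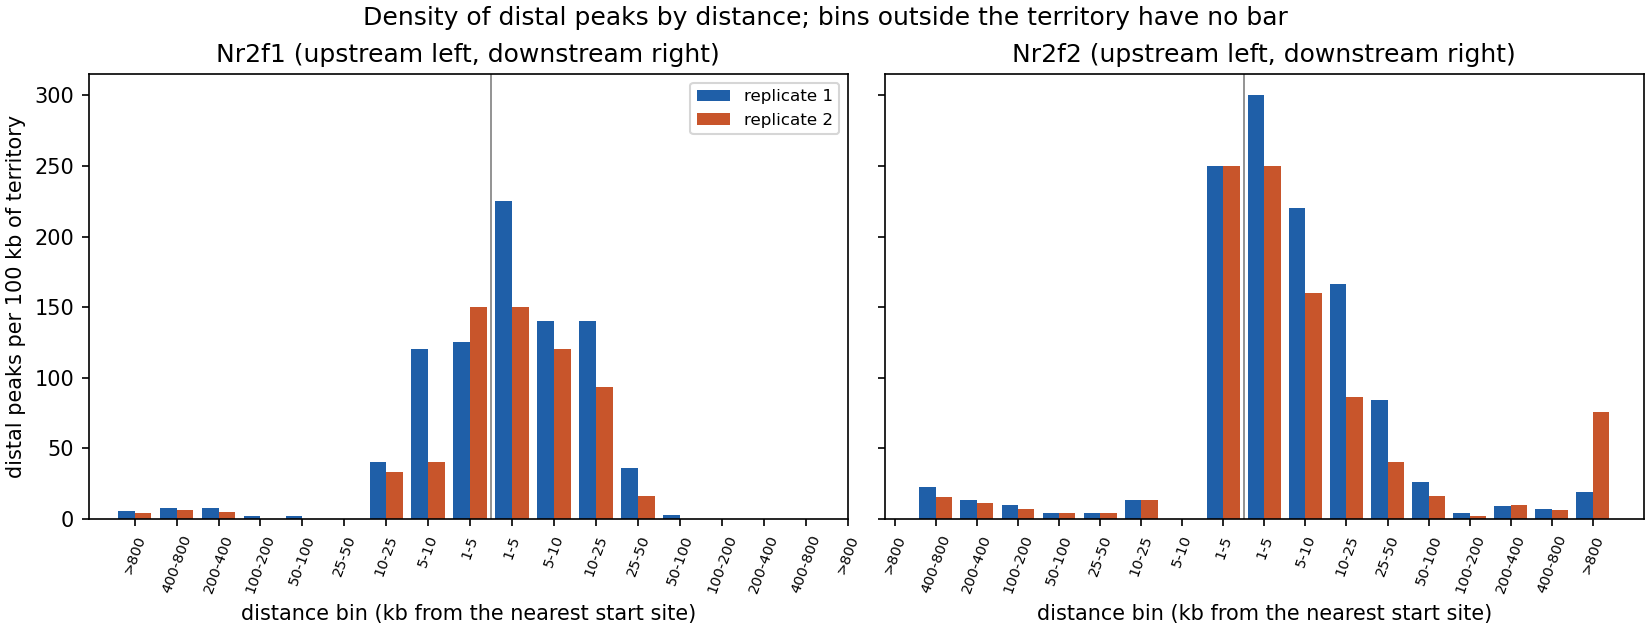
Distal peaks per 100 kb of territory in bins of distance from the nearest start site, upstream to the left and downstream to the right of the grey line, for replicate 1 (blue) and replicate 2 (orange). The tallest bars of both genes lie within 25 kb, the Nr2f1 bins from 25 to 200 kb upstream hold 3 and 0 peaks, and the last downstream bin of Nr2f2 covers only 5.3 kb of territory with 1 and 4 peaks. The 1 to 5 kb bars of Nr2f2 stand too high on both sides. They count peaks between its start sites, a stretch left out of the bin length.

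The far peaks stood in small islands. When peaks of either library over 100 kb from a start site were joined across gaps of up to 3 kb, Nr2f1 had 47 islands, 25 of them with peaks of both libraries, and Nr2f2 had 65, 37 of them with both. Those with 4 or more peaks and both libraries numbered 12 for Nr2f1 and 22 for Nr2f2. The islands named next were chosen after their values were seen. For Nr2f1 the island of highest rank was chr13:78426436-78428825, centred near −227.9 kb in the lincRNA gene Gm31946, with 4 peaks in each library, the best at percentiles 92.7 and 86.5, and it is the first group of peaks past the sparse stretch. The Nr2f1 island with the most peaks, chr13:79251356-79258925, lay near −1055.8 kb and had 5 and 6. For Nr2f2 the island chr7:69577776-69586005, 778.3 kb downstream, had 7 and 6 peaks, and chr7:70845856-70849705, near −480.6 kb, had 8 and 3 with the best at percentiles 89.5 and 83.8. That last island lies close to the upstream edge of the territory, which is set by the neighbouring predicted coding gene Gm10295.

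**Figure D4:**
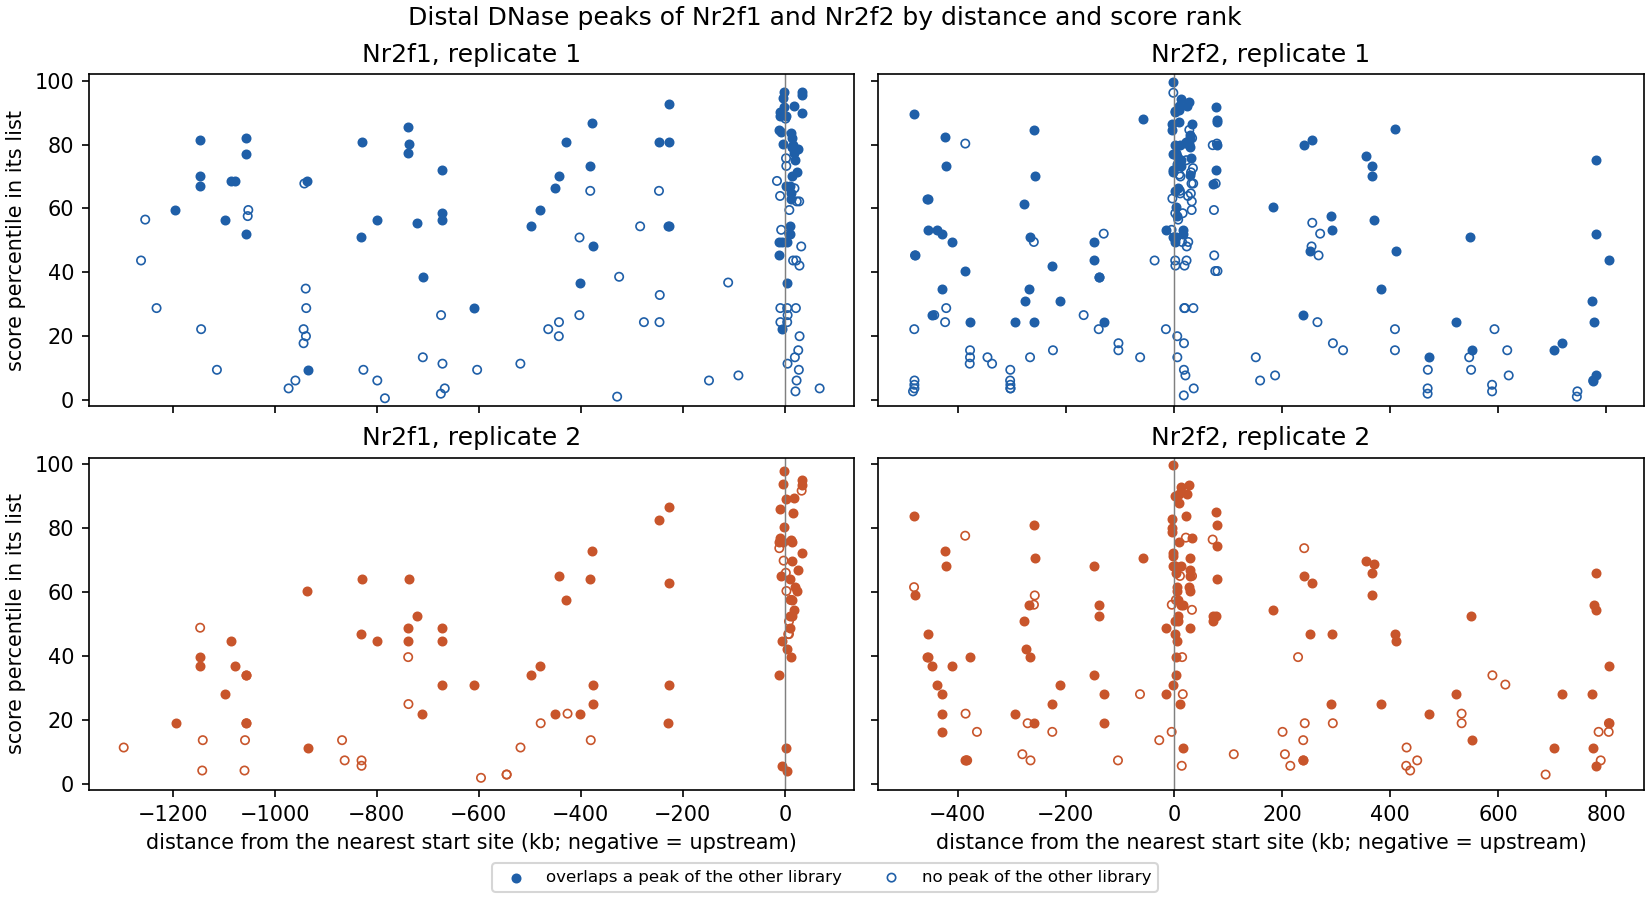
Each distal peak of Nr2f1 (left) and Nr2f2 (right) by signed distance from the nearest start site in kb and by its score percentile within its own list, for replicate 1 (top) and replicate 2 (bottom). Filled points overlap a peak of the other library and open points do not. The column of points at 0 is the dense stretch, the Nr2f1 panels show the sparse stretch up to about −227 kb, and open points lie mostly in the lower part of each panel.

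The strongest distal peaks of both genes lay in the dense stretch. For Nr2f1 the 3 with the best mean rank had scores of 131 and 123 at 2.0 kb upstream in an intron of the antisense RNA A830082K12Rik, 131 and 109 at 33.2 kb downstream in an intron of Fam172a, and 127 and 101 at 32.5 kb downstream in an annotated untranslated region of Fam172a. For Nr2f2 they had 144 and 135 at 1.3 kb upstream of an internal start site, in an intron of Nr2f2 itself, 121 and 98 at 13.5 kb downstream in intergenic sequence, and 117 and 100 at 28.0 kb downstream in an intron of the lincRNA gene Gm29683. The first of these Nr2f2 peaks was at percentile 99.7 in both lists. Beyond 200 kb, 1 of 76 Nr2f1 peaks in replicate 1 and 0 of 58 in replicate 2 lay at or above the 90th percentile of the list, against 7 of 63 and 5 of 43 within 50 kb. Nr2f2 had 0 of 95 and 0 of 86 beyond 200 kb, and 9 of 82 and 5 of 54 within 50 kb. Within 50 kb these shares were close to the share of a whole list that lies there by definition. Beyond 200 kb they were below it.

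Median score ranks were lower far from both genes than near them, with the smallest step at Nr2f1 in replicate 1. At Nr2f1 the median percentile was 63.9 and 65 within 50 kb and 53.2 and 31 beyond 200 kb. At Nr2f2 it was 67.8 and 61.5 within 50 kb, 45.3 and 52.6 at 50 to 200 kb and 26.6 and 28 beyond 200 kb. Over all their distal peaks the medians were 54.4 and 46.8 for Nr2f1 and 49.5 and 46.8 for Nr2f2, near the middle of the lists. The lists also hold promoter peaks, and the median percentile of all distal peaks is not given here. The 2 genes thus ranked high in the number of their peaks, while their typical score lay near the middle of the whole list.

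About as many of these peaks were found in both libraries as of distal peaks in general. Of the Nr2f1 distal peaks, 73 of 143 in replicate 1 (51%, exact Clopper-Pearson 95% interval 42.6 to 59.5) and 71 of 101 in replicate 2 (70.3%, 60.4 to 79) overlapped a peak of the other library. Of the Nr2f2 distal peaks, 103 of 206 (50%, 43 to 57) and 110 of 159 (69.2%, 61.4 to 76.3) did. Over all distal peaks the shares were 48.1% and 66.4%, inside these intervals, which cover counting error only and treat neighbouring peaks as independent. Replicate 1 has the longer list, and its share is the lower one at both genes and over all distal peaks. Counted as merged sites, Nr2f1 had 161, of which 69 were in both libraries, 66 in replicate 1 alone and 26 in replicate 2 alone, and Nr2f2 had 239, of which 103 were in both, 91 in replicate 1 alone and 45 in replicate 2 alone.

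Peaks absent from the other library ranked lower at both large genes. The same split over all distal peaks is not given here, so this is not shown to be particular to them. For Nr2f1 the median percentile was 70 for shared and 26.6 for unshared peaks in replicate 1, and 52.6 and 18.9 in replicate 2. For Nr2f2 it was 63.1 and 26.6, and 52.6 and 18.9. Exceptions of high score lay at Nr2f1 inside the coding sequence (chr13:78195176-78195325, score 100, replicate 1 only) and 32.7 kb downstream (chr13:78163576-78163725, score 91, replicate 2 only), and at Nr2f2 in an intron (chr7:70361616-70361765, score 130, replicate 1 only) and 386.4 kb upstream (chr7:70753016-70753165, score 52, replicate 2 only). Each of these 4 lay inside a hotspot of the other library. The single distal peak of Nr2f6, 4640 bp downstream of a start site with a score of 59, in an intron of Nr2f6 and in an annotated untranslated region of the overlapping gene Ocel1, was matched by no peak and by no hotspot in replicate 2.

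The farthest peaks found in both libraries set the reach of the peak field. For Nr2f1 they lay 1194.4 kb upstream, with scores of 54 and 14, and 34.0 kb downstream, with scores of 105 and 44. For Nr2f2 they lay 481.6 kb upstream, with scores of 104 and 64, and 805.0 kb downstream, with scores of 41 and 20. The Nr2f2 peaks lie within the last stretch of the territory on both sides, so the reach there is set by the neighbouring genes.

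Hotspots, the wider regions of enriched cutting, covered a larger share of the Nr2f2 than of the Nr2f1 territory in both libraries. They covered 4.62% and 2.43% of the Nr2f1 territory, with 108 and 92 hotspots over 66.1 and 34.8 kb, and 6.59% and 4.03% of the Nr2f2 territory, with 140 and 132 over 86.0 and 52.6 kb. Over the genome they covered 2.97% and 1.92%, and the median over genes with territories of 500 kb or more was 1.11% and 0.509%. Among those 1100 genes Nr2f2 ranked 13 and 17 and Nr2f1 52 and 72. The small Nr2f6 territory, which lies mostly in Nr2f6 and its neighbour Ushbp1, was covered to 24.6% and 15.8% by 5 and 4 hotspots. Hotspots at the highest deposited −log10 q-value, 100, numbered 42 and 18 for Nr2f1, 37 and 26 for Nr2f2 and 2 and 2 for Nr2f6.

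The widest hotspots sat on or beside the genes. In the Nr2f1 territory they were 5519 bp in replicate 1 (chr13:78194770-78200288) and 2859 bp in replicate 2 (chr13:78197154-78200012), and both held start sites of the gene. In the Nr2f2 territory the widest of replicate 1, 5647 bp (chr7:70357541-70363187), held internal start sites, while that of replicate 2, 3149 bp (chr7:70348468-70351616), held none and lay just past the 3′ end of the gene. At Nr2f6 they were 1900 and 1699 bp and both held a start site. Most hotspot sequence of replicate 2 was hotspot in replicate 1 too, 89.7% at Nr2f1, 85% at Nr2f2 and 98% at Nr2f6, and of replicate 1 in replicate 2 47.2%, 52% and 62.9%. The same shares over all hotspots are not given here, so these are not shown to be particular to the 3 genes.

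Most distal peaks of Nr2f1 and Nr2f2 were counted as intergenic and many of the rest lay in noncoding RNA genes. At Nr2f1 55.2% and 62.4% were intergenic, 33.6% and 26.7% lay in noncoding RNA genes alone, and 7.69% and 6.93% lay in Nr2f1. At Nr2f2 62.1% and 66.7% were intergenic, 26.7% and 22.6% were in noncoding RNA genes alone and 11.2% and 10.7% in Nr2f2. Each peak was credited to a single host gene, also where genes overlap. So counted, the noncoding hosts with the most peaks at Nr2f1 were A830082K12Rik, antisense to Nr2f1, with 17 and 13, and 3110006O06Rik with 16 and 7. At Nr2f2 they were Gm29683, downstream of the gene, with 41 and 19, and B130024G19Rik, at its 5′ end, with 13 and 14. The antisense gene Gm38604 was credited with 6 and 3, but the peaks in 3110006O06Rik and Fam172a lie in it too. With those included it spanned more Nr2f1 peaks than A830082K12Rik in both libraries. Within 500 bp of a noncoding start site lay 7 and 8 distal peaks of Nr2f1 and 8 and 8 of Nr2f2. The same shares over all distal peaks are not given here, so none of them is shown to be particular to these genes. Every noncoding host was a lincRNA, antisense or processed transcript gene. A peak inside a noncoding gene of another type may thus be counted as intergenic.

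The genes that border the 3 territories had fewer distal peaks per length in the case of the large genes. Next to Nr2f1, Pou5f2 had 7.79 and 4.1 per 100 kb and Arrdc3 3.05 and 1.53, against 9.99 and 7.06 for Nr2f1. Next to Nr2f2, Arrdc4 had 6.41 and 3.79 and Gm10295 8.6 and 5.51, against 15.8 and 12.2 for Nr2f2. The neighbours of Nr2f6 are as small as itself: Ocel1 had 1 and 2 distal peaks and Ushbp1, which had no promoter peak, 1 and 1.

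The distance profiles of Nr2f1 and Nr2f2 were compared with each other and with those of other genes. Over 18 signed distance bins, the share of a gene's distal peaks in each bin gave a Pearson r of 0.152 between them, which placed Nr2f2 at position 141 in likeness to Nr2f1 and Nr2f1 at position 404 in likeness to Nr2f2. Bins differ in width and depend on the size of each territory, so r is a description of shape among the 1316 genes with 20 or more distal peaks in each library. Most like Nr2f1 were Zeb2 (r = 0.873), a zinc finger repressor gene, Mms22l (0.844), a DNA repair gene, and Pou3f3 (0.785), a POU transcription factor gene of neural progenitors. Most like Nr2f2 were Dcc (0.797), a netrin receptor gene, Myc (0.765) and Lsamp (0.735), a cell adhesion gene.

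For most searched motifs the exact interval of the share in each gene's distal peaks held the share of all distal peaks, the E-box and the GC box at Nr2f1 in replicate 1 being outside it. The short ones were the nuclear receptor half-site AGGTCA, the homeodomain core TAATTA, the E-boxes CAGCTG and CATCTG, SOX (ACAAAG and ACAATG), POU (ATGCAAAT), TCF (CTTTGAT), GLI (TGGGTGG), PBX-HOX (TGATTTAT), MEIS (TGACAG), the CTCF core AGGGGGC, the GC box GGGCGG and ETS (CCGGAA), and the long ones a direct repeat of the half-site 1 base apart (DR1) or 5 bases apart (DR5) and the palindromic NFI site. Both strands were searched, and a CTCF core and a GC box can share bases, as they do in the Nr2f2 peak at 1.3 kb. The half-site, which COUP-TFs themselves bind, was in 39 of 349 distal peaks of Nr2f1 and Nr2f2 in replicate 1 (11.2%, interval 8.07 to 15) and 28 of 260 in replicate 2 (10.8%, 7.28 to 15.2), against 10.4% and 10.2% of all distal peaks. DR1, the arrangement of a COUP-TF dimer site, was in 0 of 349 and 0 of 260, which with this exact spelling is rare everywhere, at 0.0944% and 0.0497%, and 0 of 349 allows a share of up to 0.86% by a limit of 3 counts and 1.05% by the exact interval.

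The letter groups of neural factors showed small differences. SOX matches were in 28.7% and 25.7% of Nr2f1 distal peaks and 22.8% and 20.8% of those of Nr2f2, against 24.0% and 20.6% of all. Homeodomain matches were in 4.9% and 3.96% at Nr2f1 and 6.8% and 3.77% at Nr2f2, against 3.84% and 2.53%. E-boxes were in 19.6% of the Nr2f1 peaks of replicate 1 (interval 13.4 to 27), below the 30.0% of all distal peaks, but in 26.7% in replicate 2 (18.4 to 36.5), whose interval holds the 30.7% of all. Over Nr2f1 and Nr2f2 together they were in 22.6% in replicate 1 (18.4 to 27.4), also below, and in 30% in replicate 2 (24.5 to 36). In replicate 1 the Nr2f1 distal peaks had a mean guanine and cytosine content of 46.4% against 50.2% for all, and in replicate 2 50.4% against 52.9%. GC boxes were in 2.1% and 5.94% of Nr2f1 and 6.8% and 9.43% of Nr2f2 distal peaks, with 6.42% and 8.51% of all, and the interval of Nr2f1 in replicate 1, 0.435 to 6.01, lay below the share of all. The part of base composition in these shares was not tested.

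**Figure D5:**
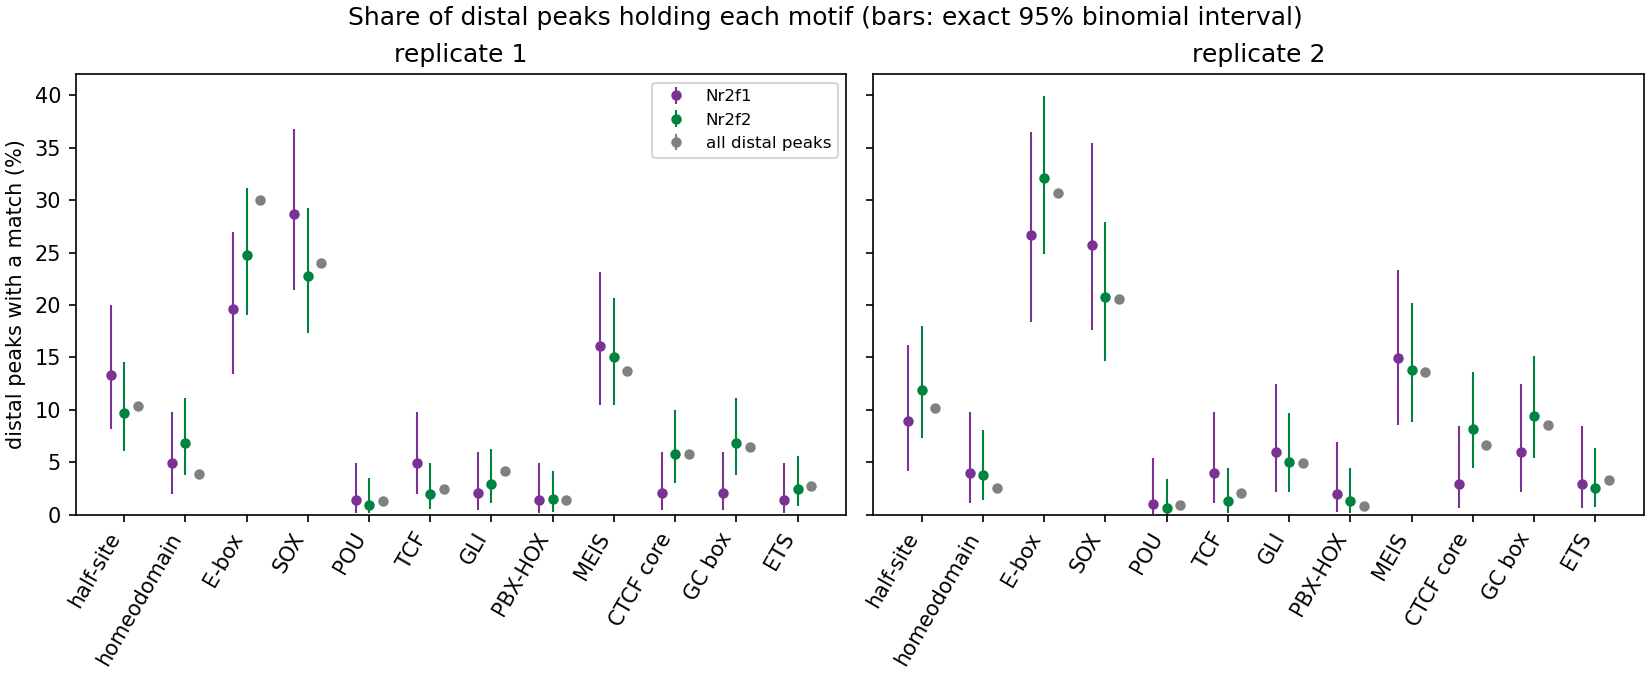
Percent of distal peaks with at least 1 match to each of 12 short motifs, for Nr2f1, Nr2f2 and all distal peaks, one panel per library, with exact 95% binomial intervals. The intervals of Nr2f1 in replicate 1 lie below the share of all distal peaks for the E-box, 19.6% against 30.0%, and the GC box, 2.1% against 6.42%, and the other intervals drawn hold it.

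Among the sequences shown above, the POU match of the Nr2f1 peak at 228.2 kb upstream is a motif found in 1.27% and 0.967% of all distal peaks. That peak also holds a SOX match at its 3′ end. The Nr2f1 peak at 2.0 kb holds none of the 15 motifs, and the one at 33.2 kb holds a GC box and a GLI match, the latter found in 4.15% and 4.91% of all distal peaks. At Nr2f2 the peak at 28.0 kb downstream holds 3 GC boxes, a PBX-HOX and a homeodomain match, and the peak at 481.6 kb upstream holds 1 E-box. The Nr2f6 promoter peak holds 3 GC boxes and an E-box, found in 42.3% and 15.4% of all promoter peaks of replicate 1, and the Nr2f2 promoter peak holds a TCF match, found in 1.09%.

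The open regions of Nr2f1 and Nr2f2 had sequence in common that passed the search limit only at coding exons. Distal peaks widened by 200 bp to each side gave 115 regions for Nr2f1 and 143 for Nr2f2, and comparing them with blastn (E-value up to 1e-05, repeats masked) gave 2 matches. One, chr13:78189751-78190014 against chr7:70354669-70354932, was 264 bp at 80.7% identity, and the other, chr13:78195155-78195525 against chr7:70357757-70358126, was 371 bp at 86% identity. Of these, 263 and 364 bases are coding sequence of each gene. No match passed the limit between the 1 region of Nr2f6 and those of Nr2f1 or Nr2f2, and none was found among the intergenic regions at this limit.

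Related receptor genes and genes known to work with COUP-TFs had promoter peaks in shares to be read against the 68.5% and 67.7% of all coding genes. Promoter peaks lay at 8 (replicate 1) and 7 (replicate 2) of 9 NR2 and RXR receptor genes, with a median of 14 and 9 distal peaks. Nr2e3, a photoreceptor gene, had none, and Hnf4a, a liver and gut gene, had 1 in replicate 1 alone. Rxra, the gene of a dimer partner, had 26 and 32 distal peaks, Nr2e1, a gene of neural stem cells, 27 and 9, and Rxrb, in a territory of 4.2 kb, 1 and 1. All 6 cofactor genes had promoter peaks in both libraries, from the corepressor gene Ncor1 with 13 and 7 distal peaks to Bcl11a, the gene of a zinc finger partner, with 77 and 53.

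All 6 retinoic acid genes had promoter peaks in both libraries too. Rarb, a receptor gene, had 64 and 38 distal peaks and Rarg 4 and 6, while Aldh1a2, the gene of the enzyme that makes retinoic acid, had 31 and 8. The semaphorin receptor genes Nrp1 and Nrp2, known as COUP-TF targets, had 39 and 34 and 83 and 56. No gene of the receptor, cofactor, retinoic acid and guidance lists had as many distal peaks as Nr2f1 in the same library, while the progenitor marker Sox2 had more, 159 and 111. The lists were not compared by a test.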

How the data were processed

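DNase-seq was measured in 2 libraries of mouse neural tube. Per the labels, coordinates are mm10 and each library is a biological replicate; the peak lists were made per library, per the files deposited with them. Aligner, caller, versions and thresholds: not given in the sources used here. Without read counts, depth is unknown. Each 150-bp peak has a score, a whole number deposited by the authors, used only to rank peaks within a list. Each hotspot has a −log10 q-value deposited by the authors, from 1.3 up to a limit of 100. Repeated rows (45 and 22) were removed. Peaks were assigned to 54361 start sites of protein-coding transcripts in GENCODE vM21, with a promoter window of 500 bp and a distal minimum of 1 kb. Python 3.11.15, numpy 2.4.6, scipy 1.17.1 and blastn 2.17.0 were used. The rule was tested on simulated peaks. Sequences came from RefSeq GRCm38.p6, the mm10 assembly.

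The 3 genes, the gene lists, the motifs and the markers were chosen with earlier results of these data known. Named peaks were every promoter peak, the 3 distal peaks with the best mean rank in both libraries (1 for Nr2f6, which had none in both), the farthest on each side in both, the highest in 1 library alone, the widest hotspots, the bordering genes, the 3 genes of most similar profile, and the genes with most, fewest or no peaks in each list; the strongest peaks beyond 200 kb and the islands were added after values were seen. With 1 group no comparison between groups was made, and no test. Alternatives changed the score minimum, list length, window, distance, overlap, start sites, repeats, hotspot limit and library.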

Additional observations from a re-analysis of the deposited data

How the results depend on the processing

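Values here are means of the 2 libraries. Of 69 alternative values for 16 results, 51 stayed within 1.5 times the count, or within 1 SD between libraries for shares and densities, and 18 did not. For the Nr2f6 density the SD, 5.59 per 100 kb, exceeded the mean, 3.95, so that even a fall to 0 counted as staying. Keeping the higher-scoring 50% of each list left 62.5 distal peaks for Nr2f1 (4.37 per 100 kb) and 88.5 for Nr2f2 (6.78), and raised the share within 100 kb to 62.2% and 67.8%; with lists of equal length the latter was 49.3% for Nr2f2. When noncoding genes also claimed peaks, Nr2f1 kept 10.5 (93.9 per 100 kb of a territory of 11.2 kb), Nr2f2 17.5 (79.7 per 100 kb of 22.0 kb) and Nr2f6 0, because far peaks then belong to nearer noncoding genes. The order of the 2 densities was then reversed. The single Nr2f6 distal peak was also lost over 5 kb (0) and with start sites of every coding gene transcript (0), an alternative chosen after seeing the data, under which Nr2f2 had 9 promoter peaks. Leaving out coding genes named only by a Gm number, also added after seeing the data, gave Nr2f2 216 distal peaks at 12.8 per 100 kb. Promoter peaks were 9.5 for Nr2f1 with a window of 1000 bp and 2 for Nr2f2 and 1.5 for Nr2f6 with 200 bp.

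Leaving out 1 library gave 0 to 1 distal peaks for Nr2f6. No paired analysis was possible because the libraries form 1 group and no result comes from a test. With 2 libraries, unknown depth and lists of unequal length, a peak missing from 1 library cannot be told apart from one missed at lower depth.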
